A study of Mus musculus with 12 samples.

Results

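Cytoplasmic ribosomal proteins are described here at the level of their mRNAs in 2 kinds of mouse bone marrow progenitor. Members were every gene whose symbol is Rpl or Rps followed by a number with or without 1 of the letters a, x or l, together with Rplp0, Rplp1, Rplp2 and Rpsa. The rule found 81 of the 23383 genes that could be joined over all libraries, 49 named for the large subunit and 32 for the small. It leaves out Rps3a1, Fau, Rack1 and a few others whose names do not have this form. Cells came from C57BL/6 mice, either wild type or labelled Cebpa +42kb enhancer -/-, called enhancer-null below; Cebpa encodes a transcription factor needed to make granulocytes and monocytes. From each genotype, CMP (common myeloid progenitors) and LSK cells (a fraction defined by Kit and Sca-1 that holds the stem cells and is labelled as such) were sequenced, with 3 libraries in each of 4 groups: enhancer-null CMP, wild-type CMP, enhancer-null LSK and wild-type LSK. No treatment or age is given in the labels, and the deletion is not tied there to a Cre or a cell type. They do not say whether the 3 libraries of a group came from 3 mice, so p-values measure the spread between these libraries, which may in part be technical.

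A ribosome has a small subunit that reads the mRNA and a large subunit that joins amino acids, and each carries its own set of proteins on a core of rRNA. Because cells need many ribosomes, the genes are highly expressed in all cells; many of these mRNAs begin with a run of pyrimidines (C and T) through which the kinase mTOR sets their translation. Blood formation is known to be sensitive to the supply of ribosomal proteins: losing 1 copy of several of these genes causes Diamond-Blackfan anemia in humans, and stem cells are known to make protein at a lower rate than the progenitors they give rise to.

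The sequence around the transcription start was searched for such a run. A usable start was found in RefSeq (build GRCm38.p6) for 50 members and for 20270 genes in all. Below, the 15 bases before and the 15 bases after the start are printed from 5′ to 3′ on the gene's strand for 6 members, with the longest run of C and T that begins with C in capitals; they were chosen to show how long the run can be in 6 proteins of different roles.
Rpl27a: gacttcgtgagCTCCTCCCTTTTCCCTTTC
Rpl15: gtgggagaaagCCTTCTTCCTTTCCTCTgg
Rps10: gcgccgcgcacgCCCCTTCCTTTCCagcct
Rps6: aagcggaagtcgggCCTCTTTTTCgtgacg
Rplp2: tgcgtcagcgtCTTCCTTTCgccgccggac
Rps21: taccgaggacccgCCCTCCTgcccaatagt
Such a run, a C followed by at least 6 further bases that are C or T, lay within these 30 bases in 21 of the 50 members (42.0%) and in 2839 of the 20270 genes. In 12 of the 21 members it crossed the annotated start, as in the 6 printed, in 3 it lay wholly after the start, and in 6, among them Rpl13, Rpl31 and Rps15a, it lay wholly before the start and so outside the annotated mRNA. Over the 300 bases from 250 before to 50 after the start, searched on both strands, the letters CCGGAAGT were present in 10 of the 50 members and in 671 genes (3.31%). The palindrome CTCGCGAG was present in 6 members and in 146 genes (0.720%), and AAGATGGC in 5 members and 546 genes (2.69%). TATAAA was present in 5 members and 3259 genes (16.1%), and CACGTG in 4 members and 1380 genes (6.81%). Motifs can overlap in 1 promoter, and a match describes the letters only.

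The libraries held 6170491 to 49149674 counts assigned to genes, so that 3 counts correspond to between 0.0612 and 0.487 CPM, the count scaled to a common library size. Levels below are CPM of the joined genes after TMM scaling over the 12 libraries. Cebpa itself was at 0.00 to 0.15 CPM in the enhancer-null CMP libraries and 15.05 to 29.95 CPM in wild-type CMP, and at 0.00 to 0.30 CPM against 2.46 to 8.24 CPM in LSK. Hlf and Mpo separated the labelled cell types in wild type. Hlf, a stem cell transcription factor, was at 388 to 488 CPM in wild-type LSK and 11.9 to 12.9 CPM in wild-type CMP. Mpo, a granule enzyme of myeloid progenitors, was at 306 to 449 CPM and 4053 to 4898 CPM. Of the other genes listed for CMP, Ctsg and Prtn3 were higher in wild-type CMP without overlap, and Elane, Ms4a3 and Fcgr3 overlapped. Cd34 and Kit went the other way, with means of 1149 and 792 CPM in wild-type LSK and 804 and 343 CPM in wild-type CMP. In enhancer-null LSK, Hlf was at 29.6 to 113 CPM and Mpo at 1217 to 2296 CPM. Of the genes for the surface proteins that define the fraction, Ly6a, which encodes Sca-1, was at 144 to 198 CPM in enhancer-null and 134 to 176 CPM in wild-type LSK, and Kit was at 659 to 800 CPM and 740 to 892 CPM. The genotypes overlapped for both.

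Nearly all members were abundant. 73 of the 81 averaged 100 CPM or more over the 12 libraries, and the 10 highest supplied 33.4% of all member counts. Rplp0, the base of the stalk that recruits the elongation factors, had a mean of 3705 CPM, with 3218 CPM in the lowest library and 4337 CPM in the highest. Divided by the length of the mRNA in kilobases, the 5 highest members were Rpl32 with 3498 ± 446 CPM per kb (SD over 12 libraries), Rpl13 with 3298 ± 530, Rps18 with 2932 ± 352, Rps9 with 2907 ± 381 and Rps19 with 2906 ± 489 CPM per kb. These neighbours in the order do not differ beyond their spread. The order of the 81 members was much the same everywhere: across members, the lowest Spearman correlation of levels between any pair of libraries was 0.977, a description that rests partly on each gene's fixed length and sequence. Large-subunit members took 57.2% to 58.8% of member counts in every library.

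8 members stayed under 40 CPM in every library, and they fall into 2 kinds. Rpl3l, Rpl10l and Rpl39l are paralogs used in muscle or testis, and Rps4l is annotated as a transcribed processed pseudogene. Rpl10l had 6 counts in 1 library and none in the other 11, and Rpl3l and Rpl39l had at most 6 counts in any library, while their counterparts Rpl3, Rpl10 and Rpl39 had means over the 12 libraries of 3325, 991 and 206 CPM. Rps4l ranged from 0.00 to 31.5 CPM, beside 1069 to 1850 CPM for its counterpart Rps4x. The other 4, Rpl26, Rpl30, Rpl34 and Rps27, encode proteins of every ribosome. Rpl26 had 0 to 6 counts per library, Rpl30 was at 0.81 to 4.32 CPM, Rpl34 at 3.04 to 13.2 CPM and Rps27 at 0.12 to 7.89 CPM. Rps27l, a close relative of Rps27, was at 118 to 273 CPM in the same libraries.

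The 4 near-absent core members each share exact stretches with processed pseudogenes, copies of their mRNA elsewhere in the genome. The first shared stretch of 75 bases, the read length, is printed below from the coding sequence of Rpl26, Rpl30 and Rpl34, each from the start codon on, and from base 20 of the coding sequence of Rps27.
Rpl26: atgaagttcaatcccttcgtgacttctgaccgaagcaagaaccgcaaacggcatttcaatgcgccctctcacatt
Rpl30: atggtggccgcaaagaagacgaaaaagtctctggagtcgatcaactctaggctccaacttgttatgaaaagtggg
Rpl34: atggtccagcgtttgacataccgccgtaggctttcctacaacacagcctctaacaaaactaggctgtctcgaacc
Rps27: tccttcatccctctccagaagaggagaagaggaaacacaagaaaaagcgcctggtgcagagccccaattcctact
These runs recur letter for letter in Gm15772 on chromosome 5, Gm12191 on chromosome 11, Gm10154 on chromosome 4 and Gm19246 on chromosome 7 (GENCODE M21). Of all 75-base windows in each mRNA, 57.5% for Rpl26, 40.1% for Rpl30, 41.4% for Rpl34 and 98.5% for Rps27 recur in transcripts of another locus. The median member had 47.9% of its windows shared, and Rpl10, with 91.9% shared, had a mean of 991 CPM. Over the 81 members the Spearman correlation of shared windows with the level per kb was 0.27, a description across genes. Rows of the files for reads placed at more than 1 site held 14.5% to 19.7% of all counts. Whether reads of the 4 genes were set aside there was not tested, and their values below describe what the files list, not how much mRNA was present.

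Together the members took a smaller share of gene counts in enhancer-null cells. In CMP the share was 7.98%, 7.16% and 7.53% in the enhancer-null libraries (replicates 1, 2 and 7) and 9.49%, 8.45% and 8.29% in the wild-type libraries (replicates 1, 6 and 8). The means were 7.56% ± 0.41 and 8.74% ± 0.65 (SD, n = 3 each), and the groups did not overlap. In LSK the share was 8.25%, 7.43% and 7.87% in enhancer-null and 8.79%, 9.53% and 8.53% in wild type, with means of 7.85% ± 0.41 and 8.95% ± 0.52, again without overlap. An exact two-sided permutation test gave p = 0.1 in each cell type, the smallest that 3 against 3 libraries allow. Between CMP and LSK the shares overlapped, with differences of -0.21 percentage points in wild type and -0.29 in enhancer-null (exact permutation p = 0.5 for each). Taken of all rows, those that name no gene included, the genotypes overlapped as well: 4.61% ± 0.33 against 4.93% ± 0.39 in CMP (exact permutation p = 0.3, n = 3 each) and 4.78% ± 0.34 against 5.13% ± 0.26 in LSK (exact permutation p = 0.3, n = 3 each). Reads overlapping no gene took 21.5% to 24.4% of counts in enhancer-null and 23.1% to 30.0% in wild-type CMP, and 20.4% to 22.4% against 24.5% to 26.8% in LSK. In bulk samples, fewer cells of a type and less RNA per cell cannot be told apart.

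**Figure D1:**
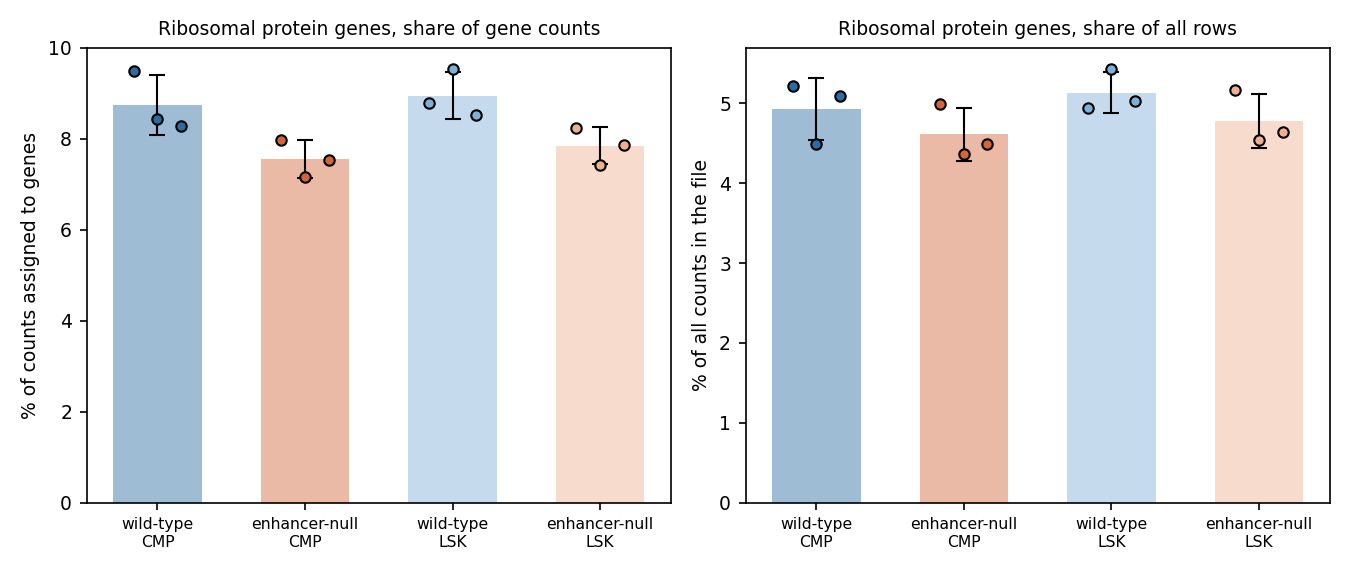
Share of counts taken by the 81 ribosomal protein genes, in % of counts assigned to genes (left) and in % of all rows (right), with points for libraries, bars for the group mean and lines for ± 1 SD (n = 3). On the left the wild-type libraries sit between 8.29% and 9.53% and the enhancer-null libraries between 7.16% and 8.25%; on the right the genotypes overlap in both cell types.

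Gene by gene, the members differed in the same direction but by little in enhancer-null CMP. 77 members passed the filter on low counts, and no member passed an adjusted p of 0.05 (edgeR's quasi-likelihood test, Benjamini-Hochberg over 11722 genes, of which 0.589% were called). The median log2 fold change was -0.21, beside -0.02 over all genes tested, and 72 of 77 values were below 0. At an unadjusted p under 0.05 there were 15 members (19.5%, against 12.6% of all genes), all lower in enhancer-null. Enhancer-null lay below wild type without overlap for 21 members (27.3%), against 12.9% of all genes, and above it for none, against 10.8%. DESeq2 called 3 of the 77 members, among them Rplp1 and Rpsa, a smaller share than the 5.57% of all genes that it tested.

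Rplp1, an acidic protein of the stalk (chr9:61913284-61914542, minus strand, 3 exons, mm10), was among the lowest members. Its level was 797, 793 and 866 CPM in enhancer-null CMP and 1279, 974 and 1197 CPM in wild-type CMP. All 3 enhancer-null libraries were below all 3 wild-type libraries. The log2 fold change was -0.48 ± 0.13 (SE, adjusted p = 0.209 by edgeR's quasi-likelihood test, and 0.0289 to 0.805 over the alternatives). Its partner on the stalk, Rplp2, had a mean of 549 ± 49.2 CPM against 739 ± 162 CPM (SD, n = 3) and a log2 fold change of -0.42 ± 0.17, with overlapping groups. Rplp0, to which both attach, had a log2 fold change of -0.17 ± 0.09.

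Members of the small subunit gave similar values. Rpsa, known also as the laminin receptor (chr9:120127689-120132369, plus strand), was at 3263, 3018 and 3301 CPM against 4418, 4080 and 3797 CPM, a log2 fold change of -0.35 ± 0.09 without overlap (adjusted p = 0.174 by edgeR's quasi-likelihood test; 0.0246 to 0.691 over the alternatives). Rps15, the lowest small-subunit member among those at 100 CPM or more, had a log2 fold change of -0.43 ± 0.18. At the other end, Rps24, Rpl24 and Rps15a had log2 fold changes from 0.00 to 0.02. Rps24 is mutated in some patients with Diamond-Blackfan anemia; its enhancer-null libraries were at 1056, 729 and 717 CPM and its wild-type libraries at 1017, 717 and 753 CPM, which overlap. The lowest 3 values of all belonged to near-absent members and were not precise: -0.78 ± 1.30 for Rpl30, -0.67 ± 1.05 for Rpl34 and -0.51 ± 1.74 for Rps4l.

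In LSK most member values lay below 0 as well. CMP and LSK libraries share replicate numbers, and the labels do not say whether they came from the same mice, so LSK is not shown to be an independent repeat of CMP. No member passed (edgeR's quasi-likelihood test over 11619 genes, 0.103% called), the median log2 fold change of the 77 members was -0.20 beside -0.01 over all genes, and 70 values were below 0. 14 members had an unadjusted p under 0.05 (18.2%, against 7.91% of all genes). Enhancer-null lay below wild type without overlap for 34 members (44.2%), against 10.4% of all genes, and above it for 1, Rps27l, against 8.65%. DESeq2 called 3 of the 77 members, Rplp1, Rps14 and Rpl37a, against 2.37% of the genes it tested.

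Rplp1 was lowest here as well among members at 100 CPM or more. It was at 863, 809 and 895 CPM in enhancer-null LSK and 1203, 1439 and 1194 CPM in wild-type LSK, with no overlap. The log2 fold change was -0.55 ± 0.11 (adjusted p = 0.159 by edgeR's quasi-likelihood test; 0.000497 to 0.653 over the alternatives). Of the other stalk proteins in LSK, Rplp2 was at 491, 529 and 519 CPM against 657, 795 and 639 CPM (log2 fold change -0.42 ± 0.12, no overlap) and Rplp0 had 0.01 ± 0.08 with overlapping groups. Rps14, whose human counterpart is lost in a form of myelodysplastic syndrome with anemia, was at 1622, 1433 and 1465 CPM against 2153, 2144 and 1923 CPM. These groups did not overlap either, and the log2 fold change was -0.43 ± 0.09 (adjusted p = 0.179 by edgeR's quasi-likelihood test; 0.00108 to 0.69 over the alternatives). Rpl37a, a zinc-binding protein of the large subunit, was at 496, 442 and 416 CPM against 701, 723 and 563 CPM, a log2 fold change of -0.53 ± 0.14 (adjusted p = 0.349 by edgeR's quasi-likelihood test; 0.0409 to 0.914 over the alternatives). Rpl38, known for its part in the translation of Hox mRNAs, had -0.48 ± 0.21 and Rps21 had -0.45 ± 0.20 (SE), both without overlap. Of the near-absent members, Rps4l had -1.22 ± 0.69, Rps27 -0.70 ± 1.27 and Rpl34 0.57 ± 1.10.

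Both cell types together held 66 members with a negative log2 fold change in each. 11 members lay below wild type without overlap in both CMP and LSK, among them Rpl5, Rpl13, Rpl18, Rpl41, Rplp1, Rps10, Rps14, Rps16, Rps18 and Rpsa. That is 14.3% of the 77 members, against 2.42% of the 11136 genes tested in both comparisons. Of these, Rpl13 had log2 fold changes of -0.39 in CMP and -0.28 in LSK, Rpl18 of -0.40 and -0.21, Rps16 of -0.41 and -0.22, and Rps10 of -0.36 and -0.37. Rpsa had -0.35 in CMP and -0.16 in LSK.

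**Figure D2:**
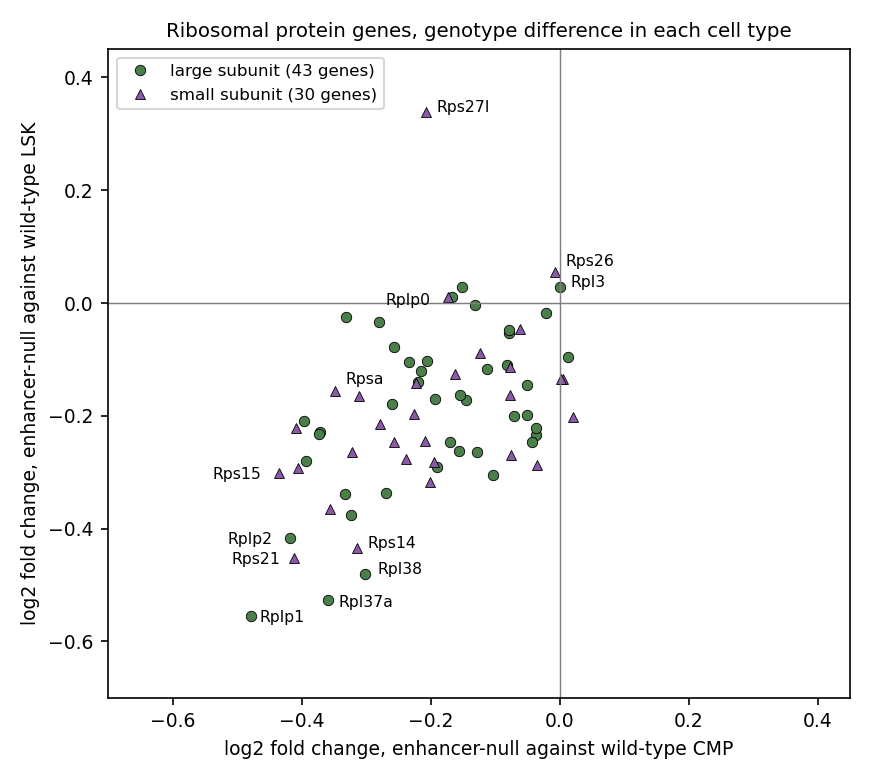
Log2 fold change of enhancer-null against wild type in CMP (horizontal) and in LSK (vertical) for the 73 members averaging 100 CPM or more; circles are large-subunit and triangles small-subunit members. Most points lie below 0 on both axes, with Rplp1 lowest on each (-0.48 and -0.55), and Rps27l alone is well above 0 in LSK (0.34).

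Most members are short mRNAs, and other short mRNAs lay on the same side of 0. The mRNAs of the members had a median of 729 bases, against 2720 bases for the genes tested in CMP. In CMP, other genes under 700 bases had a median log2 fold change of -0.23 (487 genes) and members of that length -0.24 (38 genes), while other genes of 4000 bases or more had 0.10. In LSK the corresponding values were -0.18 (480 genes), -0.25 (38 members) and 0.07. Among genes at 100 CPM or more and under 1000 bases, enhancer-null lay below wild type without overlap for 49 of 170 other genes (28.8%) and 14 of 56 members in CMP, and for 32 other genes (18.8%) and 25 members (44.6%) in LSK. The medians in that class were -0.14 for other genes and -0.20 for members in CMP, and -0.08 and -0.21 in LSK. For longer members the distance from other genes depended on the class of length. At any level, the 11 members of 1000 to 1500 bases had a median of -0.17 in CMP, beside -0.14 for other genes. In LSK these members had -0.10 beside -0.11. The 5 members of 1500 to 2500 bases had -0.22 beside -0.04 in CMP and -0.14 beside -0.02 in LSK. Among genes at 100 CPM or more with 1000 to 4000 bases, the 17 members had a median of -0.20 in CMP beside -0.01 for 1553 other genes, and -0.14 in LSK beside 0.10. Without overlap, 5 of these members (29.4%) and 283 other genes (18.2%) lay lower in CMP, and 9 members (52.9%) and 131 other genes (8.44%) in LSK; these differences between members and other genes were not tested. When the trend of level against mRNA length was removed within each library, the median of all genes in CMP moved to 0.13 and that of the members to 0.11, a distance of -0.02 in place of -0.18. In LSK the distance of the members from all genes became -0.04 in place of -0.19, and no member passed in either. The 12 libraries differed in this trend within groups too: among genes that are no members, the median deviation of those under 1000 bases minus that of those of 4000 bases or more was 0.37 on the log2 scale in wild-type CMP replicate 1, the highest, and -0.27 in enhancer-null LSK replicate 7, the lowest. Wild-type CMP replicate 1 also had the highest member share of the CMP libraries; without it the member median in CMP was -0.11, and without enhancer-null CMP replicate 2, the library with the lowest share, it was -0.14. In LSK the median was -0.12 without wild-type replicate 6, the library with the highest share of all 12. With 1 library left out, the distance of the members from all genes ran from -0.26 to -0.04 in CMP and from -0.26 to -0.09 in LSK. With no filter on low counts its sign turned in CMP, to 0.15, with a median of -0.23 for the members and -0.38 for all genes and 64 of 81 members above the latter; in LSK it was -0.11. With sex as a covariate it was -0.12 in CMP and -0.19 in LSK. Sex was read from the counts of Xist against those of Y-linked genes, not from the labels.

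**Figure D3:**
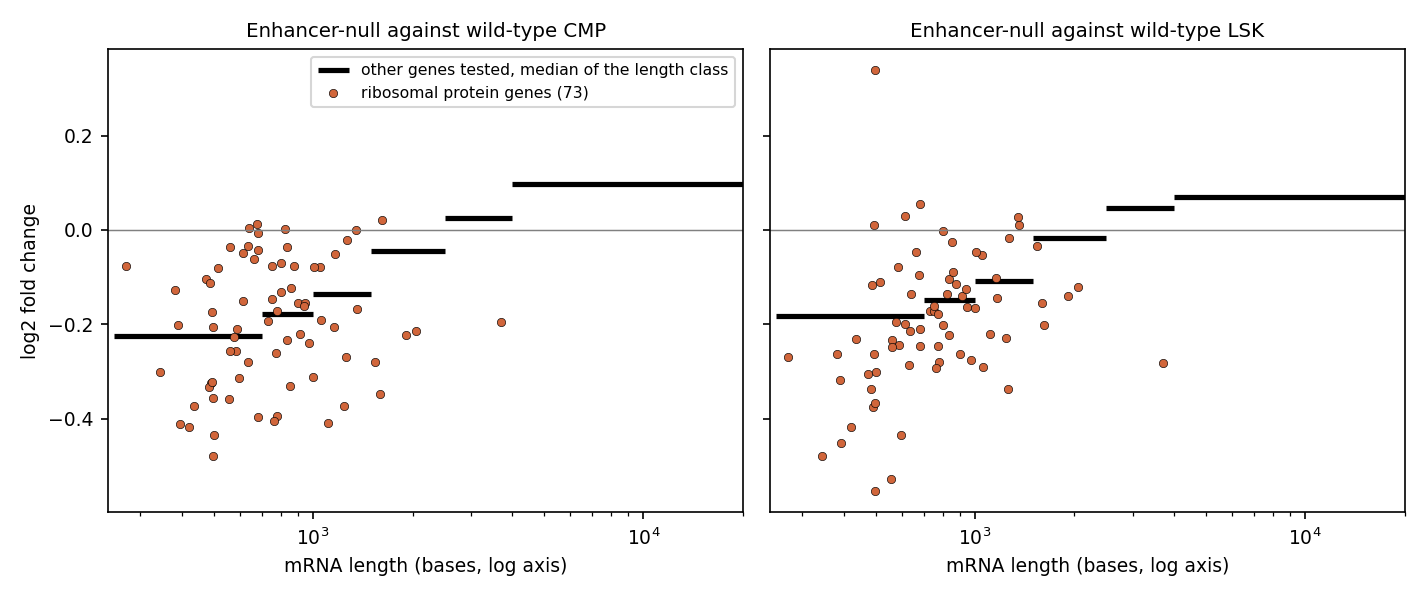
Log2 fold change of enhancer-null against wild type in CMP (left) and LSK (right) against mRNA length in bases on a log axis; points are the 73 ribosomal protein genes at 100 CPM or more and bars the medians of other tested genes in classes of length. Medians of other genes ran from -0.23 under 700 bases to 0.10 at 4000 bases or more in CMP and from -0.18 to 0.07 in LSK, and many members lie near the bar of their class.

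Members tied to anemia or to the stress response of the nucleolus had values in the range of the other members. The list of 20 members whose human genes are mutated in Diamond-Blackfan anemia had a median log2 fold change of -0.15 in CMP and -0.16 in LSK over 19 tested. Rpl5 and Rpl11, which hold back the p53 regulator MDM2 when ribosome assembly fails, had log2 fold changes of -0.21 ± 0.12 and -0.23 ± 0.12 in CMP and of -0.12 ± 0.09 and -0.10 ± 0.14 in LSK. Rps19, the gene most often mutated in that anemia, had means of 1683 ± 235 CPM in enhancer-null and 1740 ± 337 CPM in wild-type CMP, and 1754 ± 178 against 2180 ± 299 CPM in LSK (SD, n = 3), with log2 fold changes of -0.04 and -0.29. Rps6, the substrate of S6 kinase, had log2 fold changes of -0.08 ± 0.14 and -0.11 ± 0.11. Large and small subunits differed little, with medians of -0.19 and -0.22 in CMP and -0.17 and -0.22 in LSK. Members with a pyrimidine run within 15 bases of the start had medians of -0.19 in CMP and -0.16 in LSK (21 genes). The 12 whose run crosses the start, such as Rps6 and Rps10, had -0.23 and -0.19, and members with a usable start but no run -0.20 and -0.23 (26 tested).

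Between the cell types of wild-type mice, member levels lay on either side of 0. No member passed (edgeR's quasi-likelihood test over 12027 genes, 4.2% called), the median log2 fold change of CMP against LSK was 0.05, and 41 of 77 values were above 0. 5 members had an unadjusted p under 0.05 (6.49%, against 20.5% of all genes). CMP lay above LSK without overlap for 6 members (7.79%, against 15.9% of all genes) and below for 3 (3.90%, against 17.4%). DESeq2 called 3 of the 77 members, Rps2, Rps27l and Rpl8, a smaller share than the 13.8% of the genes it tested. Rps2 and Rps27l were also called when all 12 libraries were fitted together (3.8% of all genes), and Rps2 and Rpl29 when wild-type LSK replicate 6 was left out (6.82% of all genes).

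Rps2, which helps keep decoding accurate (chr17:24718116-24721929, plus strand), was at 3628, 3366 and 3392 CPM in wild-type CMP and 2329, 2940 and 2476 CPM in wild-type LSK. Every CMP library was above every LSK library. The log2 fold change was 0.48 ± 0.11 (adjusted p = 0.0651 by edgeR's quasi-likelihood test; 0.00748 to 0.282 over the alternatives). Rpl8, a protein near the catalytic core of the large subunit (chr15:76904078-76906314, plus strand), was at 1608, 1425 and 1319 CPM against 1157, 1164 and 1091 CPM, a log2 fold change of 0.40 ± 0.11 without overlap (adjusted p = 0.0865 by edgeR's quasi-likelihood test; 0.0102 to 0.262 over the alternatives). Rps27l (chr9:66946086-66949516, plus strand), a paralog of Rps27 known as a target of p53, was at 273, 171 and 198 CPM against 119, 118 and 127 CPM. That is a log2 fold change of 0.88 ± 0.21, the largest of the members at 100 CPM or more (adjusted p = 0.0677 by edgeR's quasi-likelihood test; 0.00597 to 0.241 over the alternatives). In the other direction stood Rps24 at -0.34 ± 0.15, Rps19 at -0.27 ± 0.17 and Rps14 at -0.27 ± 0.14, none of which passed. Rps27 had -1.38 ± 1.25 and Rps4l -1.08 ± 0.81, and Rpl30 had 0.86 ± 1.18, on the few counts given above.

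In enhancer-null mice the member values between CMP and LSK centred on 0. No gene of any kind passed in this comparison (edgeR's quasi-likelihood test over 11266 genes, 0.0% called; 6.92% had an unadjusted p under 0.05), and 1 member, Rps2, had an unadjusted p under 0.05. DESeq2 called 1.92% of the genes it tested and no member. The member median was -0.00. Rps2 was at 2465, 2757 and 3082 CPM in CMP and 2201, 2244 and 2340 CPM in LSK, which do not overlap (log2 fold change 0.30 ± 0.10, adjusted p = 0.601 by edgeR's quasi-likelihood test, and 0.146 to 1 over the alternatives). Rps27l had a log2 fold change of 0.30 ± 0.19, Rpl10 of 0.22 ± 0.12 and Rpl8 of 0.07 ± 0.11. CMP lay above LSK without overlap for 4 members (5.19%, against 7.58% of all genes) and below for 2 (2.60%, against 9.26%).

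The genotype difference itself was compared between CMP and LSK by an interaction term over all 12 libraries. No member passed (edgeR's quasi-likelihood test over 12684 genes, 0.292% called), none had an unadjusted p under 0.05 against 7.64% of all genes, DESeq2 called none against 1.52%, and the median was 0.03 beside 0.01 over all genes. Rps27l had the smallest p: its log2 fold change in CMP minus that in LSK was -0.51 ± 0.28 (adjusted p = 0.728 by edgeR's quasi-likelihood test, and 0.39 to 0.975 over the alternatives). It was lower by 0.21 on average in enhancer-null CMP and higher by 0.34 in enhancer-null LSK, where the libraries were at 161, 158 and 132 CPM against 119, 118 and 127 CPM. Rpl8 followed at -0.27 ± 0.15, Rps19 was at 0.29 ± 0.21, Rps24 at 0.26 ± 0.23 and Rpsa at -0.16 ± 0.12.

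**Figure D4:**
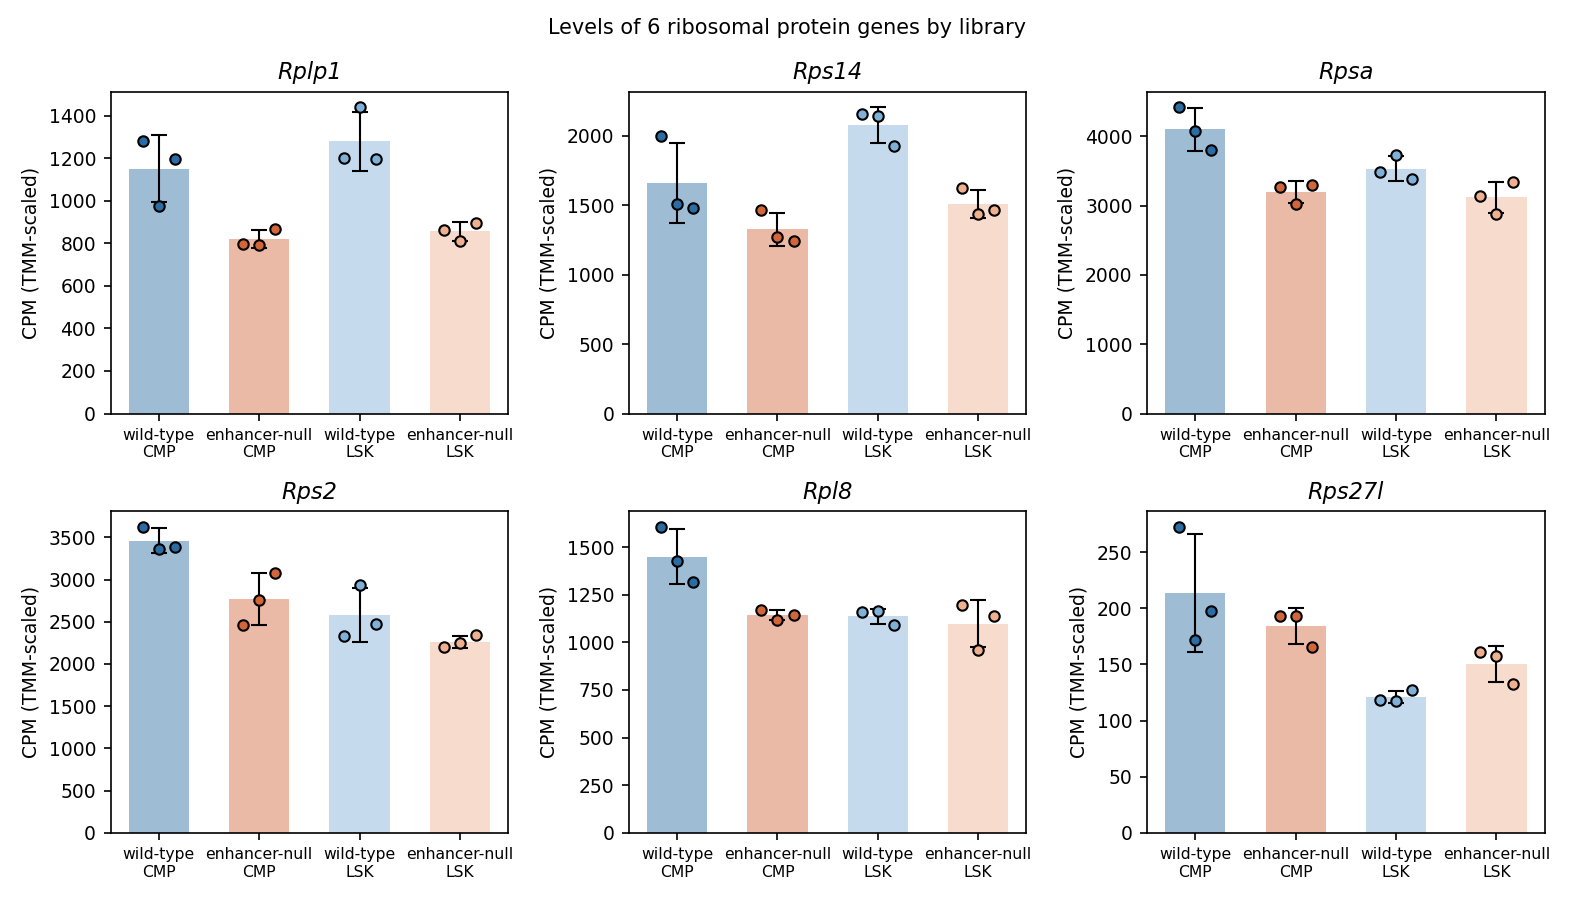
Levels in CPM of Rplp1, Rps14, Rpsa, Rps2, Rpl8 and Rps27l, with points for libraries, bars for the group mean and lines for ± 1 SD (n = 3). Rplp1 and Rps14 lie lower in enhancer-null than in wild type in both cell types, while Rps2, Rpl8 and Rps27l have their highest mean in wild-type CMP.

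Between the wild-type cell types, most lists of other genes of ribosome production had higher medians than the ribosomal proteins; that difference between lists was not tested. Of 28 tested initiation factors, which load the ribosome on mRNA, 26 had higher values in CMP than in LSK, with a median log2 fold change of 0.55, and 4 passed: Eif4a1 (0.65 ± 0.12), Eif3b (0.71 ± 0.14), Eif5a (0.64 ± 0.13) and Eif3g (0.70 ± 0.15). The core proteins of the particles that modify rRNA had a median of 0.53 over 12 genes, and 2 rose, Nhp2 by 1.07 ± 0.20 and Fbl, the rRNA methyltransferase, by 0.64 ± 0.14. Of the 60S assembly factors 31 of 33 were above 0 with a median of 0.52, and nucleolin (Ncl, 0.83 ± 0.11) and Mrto4 (1.25 ± 0.26) rose. The 40S assembly factors had 27 of 29 above 0 and a median of 0.49, with none past the test; Utp15 had the smallest adjusted p (0.0791 by edgeR's quasi-likelihood test). Mitochondrial ribosomal proteins, which build the separate ribosome of that organelle, were above 0 for 77 of 77 genes with a median of 0.61, and Mrpl20 rose by 1.22 ± 0.23. Elongation factors and other genes whose mRNAs start with a pyrimidine run had a median of 0.22 over 15 genes, and nucleophosmin (Npm1) rose by 0.71 ± 0.12. RNA polymerase I and its factors had a median of 0.26 over 20 genes and none passed. Set beside these medians of 0.22 to 0.61, that of the 77 cytoplasmic ribosomal proteins was 0.05. The 18 regulators of ribosomal protein synthesis had a median of -0.03, with 11 below 0. Among them Mycn passed, with means of 26.4 ± 13.5 CPM in wild-type CMP and 155 ± 12.1 CPM in wild-type LSK (SD). Its log2 fold change was -2.50 ± 0.41 (adjusted p = 0.0217 by edgeR's quasi-likelihood test). Among other genes at 100 CPM or more and under 1000 bases, the median was 0.24.

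**Figure D5:**
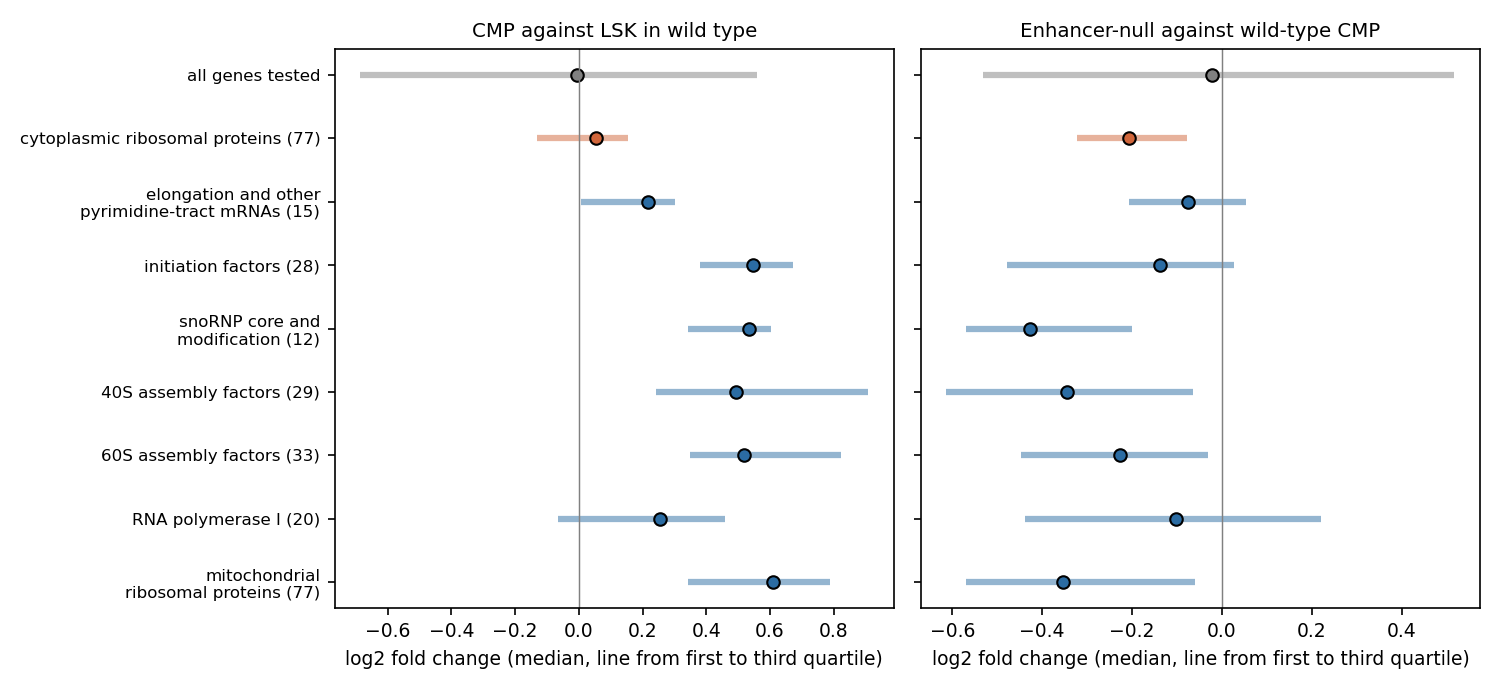
Median log2 fold change (points) with the middle quartiles (lines) for the cytoplasmic ribosomal proteins, other gene lists and all genes tested, in wild-type CMP against LSK (left) and in enhancer-null against wild-type CMP (right); the number of genes tested is in parentheses. On the left the cytoplasmic ribosomal proteins lie at 0.05 and the other lists drawn between 0.22 and 0.61; on the right the cytoplasmic ribosomal proteins lie at -0.21, between the snoRNP list at -0.43 and the elongation list at -0.07.

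Between genotypes in CMP these lists, the regulators apart, had medians below 0 like the members, with no gene of theirs past the test. Their medians were -0.43 for the rRNA-modifying particles (Fbl had the smallest adjusted p, 0.078 by edgeR's quasi-likelihood test), -0.35 for mitochondrial ribosomal proteins, -0.34 for 40S and -0.23 for 60S assembly factors, -0.14 for initiation factors, -0.10 for RNA polymerase I and -0.07 for the elongation list. In LSK the medians of several lists lay nearer to 0 or above it. The values were -0.02 for mitochondrial ribosomal proteins and 0.06 for the rRNA-modifying particles. For 40S and 60S assembly factors they were 0.15 and 0.16, and for initiation factors 0.17. The members were at -0.20 there. RNA polymerase I was no nearer to 0, at -0.11 in LSK and -0.10 in CMP. Of 6 tested ribosomal protein genes that the naming rule leaves out, among them Fau, 5 were below 0 in each cell type, with medians of -0.20 in CMP and -0.20 in LSK. Among 18 regulators of ribosomal protein synthesis, 1 passed in CMP: Mycn, a Myc-family transcription factor, at 246, 187 and 499 CPM in enhancer-null and 13.1, 26.02 and 39.98 CPM in wild type. It rose by 3.57 ± 0.54 (adjusted p = 0.0452 by edgeR's quasi-likelihood test). With Mycn included, the 18 regulators summed to 2334 to 3039 CPM in enhancer-null and 1931 to 2230 CPM in wild-type CMP. In LSK their sums overlapped.

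Of the markers of other cells, the mast cell and basophil sums and the megakaryocyte sums were apart between genotypes in both cell types. Megakaryocyte genes summed to 143 to 258 CPM in enhancer-null and 79.0 to 119 CPM in wild-type CMP. In LSK they ran the other way, at 176 to 220 CPM against 298 to 418 CPM. T cell sums were 51.9 to 160 CPM in enhancer-null and 8.86 to 30.2 CPM in wild-type CMP, and overlapped in LSK. The B cell sums overlapped in both. The late neutrophil and erythroid sums were apart in LSK and overlapped in CMP. The 7 mast cell and basophil genes summed to 1400 to 1765 CPM in enhancer-null and 57.8 to 262 CPM in wild-type CMP, and to 321 to 678 CPM against 7.76 to 20.1 CPM in LSK. Of the 6 tested in CMP, 3 were above 0 and 3 below, and the basophil protease Prss34 had no count in enhancer-null CMP. Cpa3 and Gzmb passed in CMP. Cpa3 had means of 1103 ± 211 CPM in enhancer-null and 41.7 ± 20.1 CPM in wild-type CMP (SD). Gzmb had 463 ± 190 and 0.81 ± 1.02 CPM. In LSK Cpa3 passed too, with 480 ± 154 against 8.05 ± 4.49 CPM. The 11 late neutrophil genes summed to 5.54 to 30.3 CPM in enhancer-null and 27.8 to 2243 CPM in wild-type CMP, and to 9.45 to 28.3 CPM against 137 to 1441 CPM in LSK. The 12 erythroid genes found summed to 3018 to 6807 CPM in enhancer-null and 4627 to 5205 CPM in wild-type CMP, and to 771 to 1205 CPM against 1423 to 1687 CPM in LSK; between wild-type CMP and LSK all 10 tested were above 0. Their part in the member values was not tested.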

How the data were processed

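The authors deposited raw counts per gene, 1 table per library, from paired reads of 75 bp. The submitters' processing notes name TopHat2 2.0.4, TopHat, Bowtie, HTSeq and mm10; for the annotation, counting mode and strand, the setting is not given in the sources used here. Rows naming no gene held 37.2% to 46.9% of counts and were left out. Wild-type CMP replicate 6 came with 23456 symbols where the 11 other tables had 24420; 22779 identical and 604 older symbols were joined.

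Each comparison was fitted on its own libraries, and the interaction on all 12, with edgeR 4.0.16 (TMM, filterByExpr, robust quasi-likelihood test, Benjamini-Hochberg over all genes tested, threshold 0.05). The SE is the log2 fold change divided by the square root of F. The fits were tested on simulated data. Alternatives were DESeq2 1.42.0, DESeq2 size factors, scaling without the members, no filter, identical symbols, removal of the length trend, 1 fit of all libraries, sex as a covariate, the replicate block and leaving out each library. Lengths and shared windows came from GENCODE M21, starts from RefSeq. Rps20, Rpsa and Rpl5 had only long gene models, so their levels per kb are uncertain. Reads of members with pseudogenes may have been split or dropped in counting. Named members were those past 0.05, the 3 highest and 3 lowest per comparison, paralogs with counterparts, stalk and anemia-related members, and the 5 highest and lowest per kb; others, such as those called by DESeq2 or below wild type in both cell types, were picked after their values were seen. Members and lists were chosen with earlier results of these data known. Values of 1 member are not reported here.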

Additional observations from a re-analysis of the deposited data

How the results depend on the processing

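No member was called by edgeR's quasi-likelihood test in the comparisons reported, and 170 of 184 alternatives of the counts, medians and shares gave the same reading. For a median, the same meant a move smaller than the spread between libraries of a group. For a share it meant the same sign and a p on the same side of 0.05, which so few libraries cannot reach. A share could thus differ only by its sign, and the share of all rows counted as the same although the genotypes overlapped there. DESeq2 called 3 members in each genotype comparison and 3 between the wild-type cell types, where the fit of all 12 libraries called 2. With 1 library left out, 0 members were called except 2 in wild-type CMP against LSK without LSK replicate 6. With the length trend removed, the member median became 0.11 in enhancer-null against wild-type CMP, -0.068 in LSK, -0.075 in wild-type CMP against LSK and 0.26 in the interaction; the median of all genes then was 0.13, -0.02, -0.04 and 0.24. Leaving out 1 library gave medians of -0.29 to -0.11 in the CMP genotype comparison, -0.27 to -0.12 in LSK, -0.10 to 0.15 in wild-type CMP against LSK, -0.070 to 0.055 in enhancer-null and -0.13 to 0.090 in the interaction. The member share differed between wild-type CMP and LSK by -0.58 to 0.085 percentage points with 1 library left out, so its sign was not stable. The cause was not tested.

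Of 1239 alternatives for single genes, 16 turned the sign. The genes followed were named members and genes of other lists already past the test, some of them far from 0. Rps24, Rpl24 and Rps15a, which lay near 0 in the CMP genotype comparison, were not followed there. The tally therefore does not describe the members in general. With the length trend removed, values in the CMP genotype comparison became 0.050 for Rplp0, 0.022 for Rps14, 0.30 for Rps19, 0.20 for Rps6, 0.046 for Rpl11 and 0.15 for Rps27l, all but Rps19, Rps6 and Rps27l below the median of all genes; in LSK they became 0.015 for Rpl11 and 0.00071 for Rps6, and in the interaction 0.062 for Rpsa. Medians in CMP became 0.10 for large-subunit and 0.11 for small-subunit members, 0.11 for ribosomal protein genes outside the naming rule and 0.18 for the anemia list; that of RNA polymerase I in the interaction became 0.10. Leaving out 1 library gave -0.15 to 0.10 for Rps19 and -0.19 to 0.026 for Rps6 in CMP, -0.23 to 0.033 for Rpl11 in LSK, -0.0039 to 0.15 for Rpl8 between enhancer-null CMP and LSK, -0.047 to 0.35 for Rps24 in the interaction and -0.19 to 0.013 for the RNA polymerase I median there.

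Replicate numbers were not shown to pair the samples: same-numbered CMP and LSK libraries had correlations of deviations of 0.08, -0.04 and -0.02 in enhancer-null and 0.16, -0.11 and 0.04 in wild type. With the replicate block, member medians were 0.05 in wild type, -0.00 in enhancer-null and 0.02 in the interaction, with 0 members called in each; the medians of all genes were then 0.09, -0.09 and -0.17, so the members' distance from them was -0.04, 0.09 and 0.19. The paired share differences were -0.21 and -0.29 percentage points (exact sign-flip p = 0.75 and 0.25, the latter the smallest that 3 pairs allow); the 3 pairs in enhancer-null gave -0.26, -0.27 and -0.34. Between genotypes no paired analysis was made, since the labels do not pair wild-type with enhancer-null libraries, which share only replicate number 1. The denominator without mitochondrially encoded genes was not run, since the rows used hold none. Of the 8 members under 40 CPM, the 4 tested between genotypes had SEs of 0.69 to 1.74 on the log2 scale, so differences of the size seen in the others were not detectable for them; the cause was not tested.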
